A study of Homo sapiens with 10 samples.

Results

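Wide gaps between neighbouring nucleosome positions were examined in human induced pluripotent stem cells (hiPSCs) of the line PB010.5, a single line that carries a cell cycle reporter. The cells were permeabilized and treated for 5 min with micrococcal nuclease (MNase), which digests linker DNA ahead of nucleosomal DNA, in amounts of 0.5 U and 1 U, of 3 U and 6 U, and of 10 U. A single library per amount was run at read lengths of 150 and 50 bp, so that the 10 samples have 1 replicate each. The authors deposited 1 pooled list of 12921589 positions on GRCh38, in which the MNase amounts are no longer separate. Every position is 140 bp long and has a score, a signal whose scaling is not stated and whose smallest step is 1.23. The read depth behind a position is therefore unknown.

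A wide gap was chosen by its width alone: the midpoints of neighbouring positions on an autosome lay 400 to 1000 bp apart, with no unsequenced base between them. Of 12465689 intervals between neighbouring midpoints on the 22 autosomes, 757293 were wide gaps, which is 6.08%. They are set against the 5642148 ordinary intervals of 150 to 240 bp, which make up 45.3% of all intervals and span about the length of DNA that a nucleosome and its linker take up. Of the midpoints, 94.4% lay on a single 10-bp grid, so widths are precise to about 10 bp. There is no replicate of the list, and no p-value is given. Differences, wide minus ordinary, were taken on each autosome and are given as the mean with the SD over the 22 autosomes, which are not replicates.

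In a nucleosome, DNA is wrapped around an octamer of histones. Stretches rich in A and T bend less readily around the octamer and are cut more readily by MNase, whereas active promoters are kept open by transcription factors and remodelling enzymes at GC-rich DNA. Short reads that match several places of the genome cannot be assigned to a single place, so repeated sequence can lack called positions for that reason. A list of positions cannot tell a stretch without nucleosomes from a stretch without enough placed fragments.

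The gaps differed widely in sequence, and 6 of them are shown, because each stands for a kind of gap described below. Within its kind, each had the highest score on its weaker side among the gaps whose printed bases held no UTR. All are the plus strand of GRCh38, with a named feature in capitals. The first, chr11:62832052-62832251, lies just upstream of the start of STX5, a syntaxin of the Golgi, which is on the minus strand. Its capitals mark the GC box, GGGCGG or its complement, and its GC content was 69.0%. The second, chr17:43334362-43334561, is intergenic, and its capitals mark a match to the CTCF consensus, the site of the factor that shapes chromatin loops. The third, chr7:151375177-151375376, lies in an intron of NUB1 with GC of 29.5%, and its capitals mark stretches of 8 or more A or T bases. In the fourth, chr1:16619327-16619526, an intron of the pseudogene CROCCP2, every 50-mer that starts in the sequence recurs elsewhere, the central 50-mer at 2 places in all, and no base is in capitals. Next, chr11:57667312-57667511, has a run of A in capitals and lies in the promoter region of ZDHHC5, with its centre 702 bp from the start. Last, chr1:160049567-160049766, lies in an intron of KCNJ10, and its capitals mark a TA repeat. This kind was added after the shares of all repeats were seen.
STX5 start: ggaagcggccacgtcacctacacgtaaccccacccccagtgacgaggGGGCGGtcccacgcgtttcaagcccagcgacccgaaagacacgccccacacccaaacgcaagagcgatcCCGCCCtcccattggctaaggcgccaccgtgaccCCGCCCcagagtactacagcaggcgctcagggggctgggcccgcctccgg
CTCF consensus: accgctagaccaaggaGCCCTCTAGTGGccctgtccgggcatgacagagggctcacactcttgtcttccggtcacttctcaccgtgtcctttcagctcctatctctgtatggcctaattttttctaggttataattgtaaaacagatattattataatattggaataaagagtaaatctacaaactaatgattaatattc
AT-rich: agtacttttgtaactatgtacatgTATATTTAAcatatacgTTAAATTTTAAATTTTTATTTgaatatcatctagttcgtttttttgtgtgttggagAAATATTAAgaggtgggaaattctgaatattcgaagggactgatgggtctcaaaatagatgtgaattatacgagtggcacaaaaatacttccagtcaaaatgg
Repeated: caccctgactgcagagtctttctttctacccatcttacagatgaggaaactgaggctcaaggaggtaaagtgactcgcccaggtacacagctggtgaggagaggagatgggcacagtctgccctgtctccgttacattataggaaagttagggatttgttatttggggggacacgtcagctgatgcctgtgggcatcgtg
A run: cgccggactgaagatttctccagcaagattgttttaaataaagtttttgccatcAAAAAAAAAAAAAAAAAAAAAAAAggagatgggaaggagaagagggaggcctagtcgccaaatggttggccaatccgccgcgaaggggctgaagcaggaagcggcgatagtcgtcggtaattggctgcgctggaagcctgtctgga
TA repeat: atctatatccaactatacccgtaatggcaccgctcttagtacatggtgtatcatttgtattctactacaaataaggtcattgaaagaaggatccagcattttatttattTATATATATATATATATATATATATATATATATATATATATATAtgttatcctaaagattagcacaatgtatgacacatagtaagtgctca

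The gap at STX5 was 440 bp wide between positions with scores of 53.1 and 49.4. The gap with the CTCF consensus was 520 bp wide with scores of 51.8 and 39.5, and the AT-rich gap was 410 bp wide with a score of 39.5 on both sides. The repeated gap was the widest of the 6, at 970 bp, and its bordering scores of 86.4 and 67.9 were the highest. The gap with the A run spanned 400 bp between scores of 44.4 and 61.7, and that with the TA repeat spanned 450 bp between scores of 37.0 and 38.2. For scale, the median score of the list was 14.8.

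Most wide gaps lay near the narrow limit of the rule. The median width was 490 bp, with quartiles of 430 and 590 bp, and 52.0% of the gaps were 400 to 499 bp wide. Just outside the rule, 69234 intervals were 390 to 399 bp wide, with a mean GC of 33.5% in the central 200 bp, and just inside it 62114 were 400 to 409 bp wide, with 33.2%. At the other end, 1267 gaps were 991 to 1000 bp wide and 1237 intervals were 1001 to 1010 bp wide, with 32.5% and 32.8%. Neither limit therefore fell at a step in number or GC content. Beyond 1000 bp lay 42719 intervals, and a further 39 intervals of 400 to 1000 bp held unsequenced bases and were left out.

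Together the gaps covered 403 Mb, or 14.6% of the sequenced bases of the autosomes. Their share of the intervals was 5.83% ± 1.43 (SD, n = 22 autosomes), from 3.18% on chromosome 22 to 8.36% on chromosome 4. Chromosome 22 has a GC content of 47.0% and chromosome 4 of 38.2%. In windows of 1 Mb the same order appeared: the 20% of windows with the lowest GC (33.6% to 37.0%) held a median of 465 wide gaps, with quartiles of 421 and 516, and the 20% with the highest GC (44.4% to 59.1%) held 130, with quartiles of 108 and 164. The quartiles of these groups do not overlap. The window with the most wide gaps, chr21:24000001-25000000, held 683 and was singled out for that number.

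Wide gaps were partly clustered. An interval next to a wide gap was itself wide in 11.1% of cases, and 5 intervals away in 9.76%, against 5.52% next to an ordinary interval. Even so, 79.5% of wide gaps stood alone, 4.43% were in runs of 3 or more, and the longest run was of 11.

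The centres of wide gaps were poor in G and C. The central 200 bp of an ordinary interval reach into both bordering positions, while those of a wide gap lie between the positions. All values of the central 200 bp, for GC, repeats and motifs, therefore set sequence outside called positions against sequence partly inside them. The central 200 bp of wide gaps had a mean GC of 31.9% and those of ordinary intervals 43.1%. The difference was -10.98 points ± 0.510 (SD, n = 22 autosomes), it was negative on 22 of 22 autosomes, and it is larger than its spread over them. In 10 kb around the centre the GC was 38.4% and 41.9%, so that wide gaps fell 6.41 points below their own surroundings while ordinary intervals lay 1.28 points above theirs. A centre with at most 30% GC was found in 49.2% of wide gaps and 5.23% of ordinary intervals. The opposite held for a centre with at least 60% GC, found in 1.18% of wide gaps and 3.90% of ordinary intervals.

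**Figure D1:**
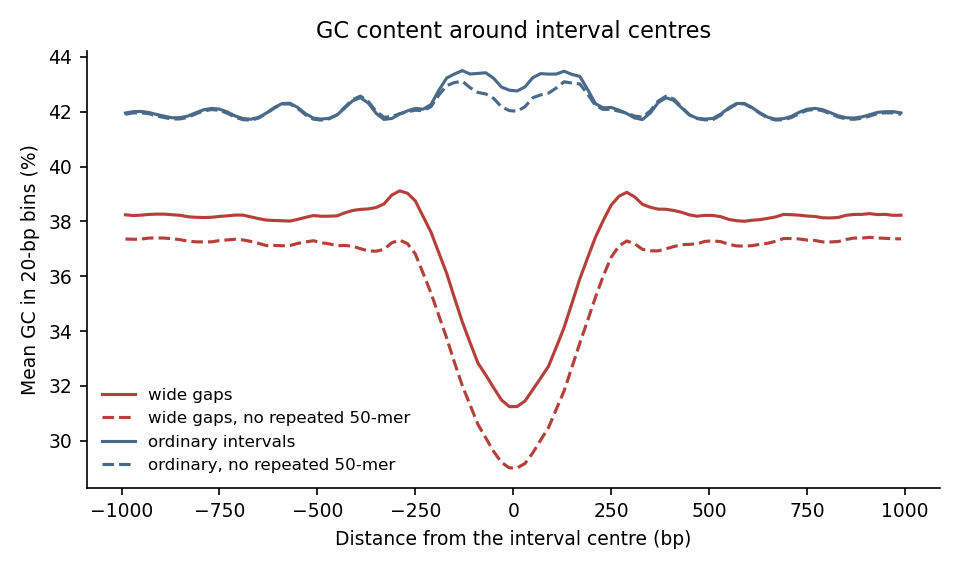
Mean GC content (%) in bins of 20 bp against the distance from the interval centre (bp), for wide gaps (red) and ordinary intervals (blue); dashed lines are the intervals without any repeated 50-mer. Wide gaps dip to 31.2% at the centre, or 29% without repeated 50-mers, while ordinary intervals stay near 42% or above.

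The dip in GC was narrow. In the 20-bp bins at the centre the mean GC of wide gaps was 31.2%, and 490 bp to the side it was 38.2%. The same bins of ordinary intervals had 42.8% and 41.7%.

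The number of wide gaps per ordinary interval was highest at low GC, fell to a minimum at 50% to 55% GC and rose in part above it. For every 100 ordinary intervals with centres below 25% GC there were 496 wide gaps, and at 25% to 30% GC there were 109. The number fell to 3.89 at 40% to 45% and to its lowest, 1.73, at 50% to 55%. It then rose again, to 2.92 at 60% to 65%, 4.41 at 65% to 70% and 8.78 at 70% or more, which is below the 9.09 at 35% to 40%. In intervals without any repeated 50-mer the shape was the same, with 404 below 25% GC, 0.353 at 50% to 55% and 3.32 at 70% or more. The GC-rich end held far fewer gaps than the AT-rich end: 2595 had a centre of 70% GC or more and 101149 one below 25%.

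**Figure D2:**
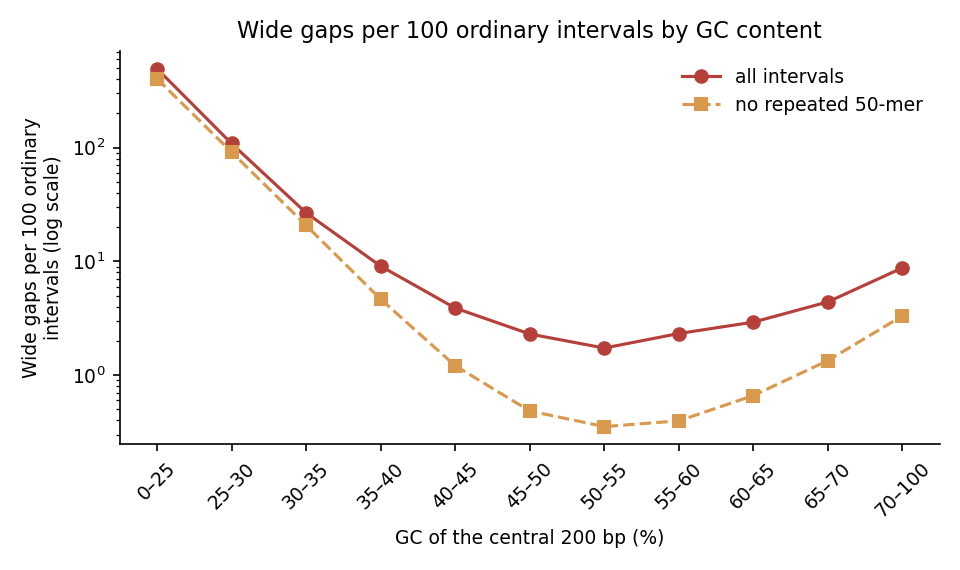
Wide gaps per 100 ordinary intervals (log axis) by the GC content of the central 200 bp (%), for all intervals (circles) and for those without any repeated 50-mer (squares). Both lines are lowest at 50% to 55% GC, at 1.73 and 0.353, and rise to both sides.

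Repeated sequence was more frequent in wide gaps. A 50-mer was called repeated where it occurs at another place of chromosomes 1 to 22, X and Y, on either strand. In the central 200 bp, 8.82% of 50-mers were repeated in wide gaps and 3.97% in ordinary intervals, a difference of 5.86 points ± 2.62 (SD, n = 22 autosomes) in the same direction on 22 of 22 autosomes. For 150-mers, as long as the longer reads, the shares were 1.53% and 0.0242%. A centre made wholly of repeated 50-mers was found in 1.45% of wide gaps and 0.0167% of ordinary intervals. The centres of ordinary intervals lie partly inside called positions, which need placed fragments. Part of these contrasts may therefore follow from how the sets were chosen. The repeated share rose with width, from 6.68% at 400 to 499 bp to 21.8% at 900 to 1000 bp. How the processing treated reads that match several places is not given in the sources used here, and the part of repeated sequence in the missing positions was not tested.

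**Figure D3:**
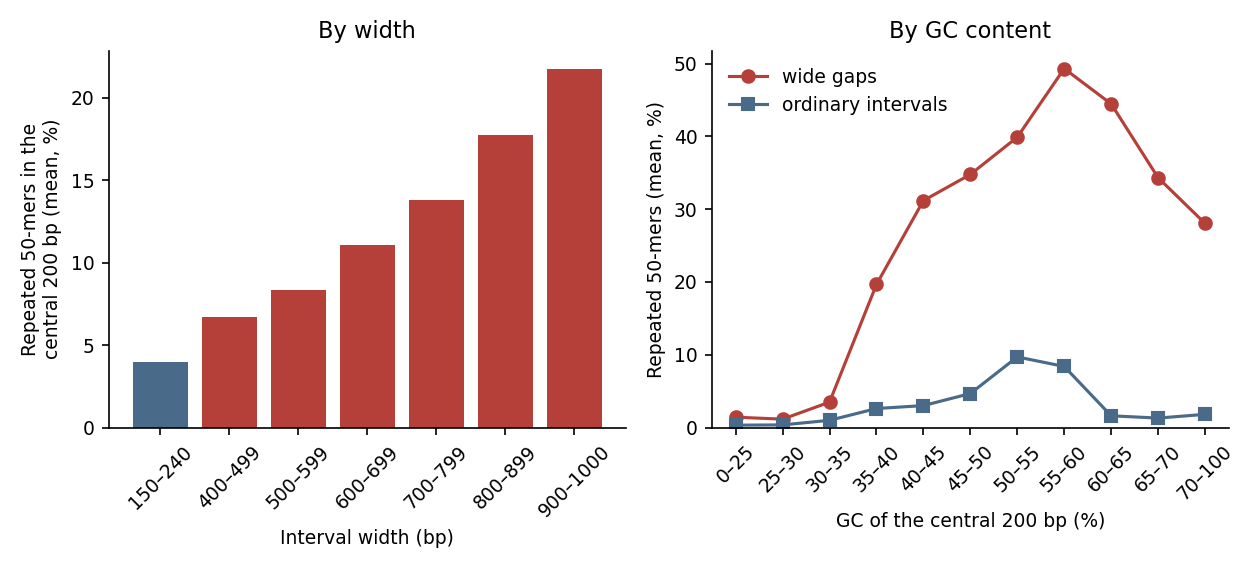
Mean share of repeated 50-mers (%) in the central 200 bp, by interval width (left, bars; ordinary intervals in blue, wide gaps in red) and by GC content of the centre (right; wide gaps circles, ordinary intervals squares). The share climbs with width from 6.68% to 21.8%, and in wide gaps reaches 49.3% at 55% to 60% GC.

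The repeated share varied with GC content. Below 25% GC it was 1.42% in wide gaps and 0.324% in ordinary intervals, and at 25% to 30% GC it was 1.15% and 0.359%. At least 1 repeated 50-mer was present in 19.9% of wide gaps and 1.85% of ordinary intervals below 25% GC. The mean repeated share of the centre at 40% to 45% GC was 31.2%, against 3.01% in ordinary intervals. At 55% to 60% GC this mean share was 49.3%, against 8.39%. Assigned in order, 6.67% of wide gaps (50500) had 50% or more of their 50-mers repeated, 49% (371053) were otherwise at or below 30% GC, 0.844% (6388) at or above 60% GC, and 43.5% (329352) were none of these. The corresponding shares of ordinary intervals were 2.31%, 5.22%, 3.85% and 88.6%. Wide gaps without any repeated 50-mer numbered 504259, or 66.6%. This set is harder to enter for a long interval than for a short one, since it holds more 50-mers: 83.7% of ordinary intervals qualified.

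Gene features differed too. The centre lay in an intron in 57.3% of wide gaps and 61.8% of ordinary intervals, a difference of -4.45 points ± 2.36 (SD, n = 22 autosomes), and was intergenic, over 2 kb from any gene, in 38.2% and 31.7%, a difference of 6.14 points ± 2.34 (SD, n = 22 autosomes). The first held its direction on 21 and the second on 22 of 22 autosomes. Exons held the centre of 3.40% of wide gaps and 6.19% of ordinary intervals, and coding sequence that of 0.405% and 1.54%. Promoter regions, taken as 2 kb upstream of a gene, held 3.14% and 4.42%, a difference of -1.04 points ± 0.389 (SD, n = 22 autosomes). The median distance to the canonical start of a protein-coding gene was 135300 bp for wide gaps and 72098 bp for ordinary intervals.

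These shares moved with GC content. When ordinary intervals were weighted to the GC content of the wide gaps in bins of 2 points, their promoter share was 2.95%, against 3.14% in wide gaps, and the difference changed sign, to 0.231 points ± 0.385 (SD, n = 22 autosomes), which is within its spread. Coding sequence came to 0.613% against 0.406%. Without repeated 50-mers it came to 0.411% against 0.379%, a difference of -0.0847 points ± 0.162 (SD, n = 22 autosomes), within its spread. Over all intervals weighted in this way, the intronic and intergenic differences stayed, at -4.46 ± 1.70 and 4.32 ± 1.42 points (SD, n = 22 autosomes).

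The order of wide gaps and ordinary intervals near gene starts differed with GC content, distance and repetition. Over all GC contents, a centre within 500 bp of a canonical start was less frequent among wide gaps, 0.302% against 0.835%, a difference of -0.487 points ± 0.129 (SD, n = 22 autosomes) on 22 of 22 autosomes. With ordinary intervals weighted to the GC of the wide gaps this difference was -0.0852 points ± 0.129 (SD, n = 22 autosomes), within its spread but negative on 21 of 22 autosomes. Without repeated 50-mers the weighted difference was 0.208 points ± 0.495 (SD, n = 22 autosomes), also within its spread and positive on 18 of 22 autosomes. Within 100 bp of a start, wide gaps had the higher share in each bin from 45% to 70% GC. In each bin from 25% to 45% GC they had the lower share, but no share there exceeded 0.0294%. Without repeated 50-mers the order at 35% to 40% GC was the other way, at 0.0243% of wide gaps and 0.0180% of ordinary intervals. At 60% to 65% GC, 3.08% of wide gaps and 0.834% of ordinary intervals had their centre within 100 bp of a start, and at 65% to 70% GC 5.72% and 2.44% had. At 70% GC or more the shares were 10.2% and 11%. Within 500 bp of a start the shares at 60% to 65% GC were 7.06% of wide gaps and 4.85% of ordinary intervals, those at 65% to 70% GC were 11.9% and 12.1%, and those at 70% GC or more were 22% and 42.6%.

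Without repeated 50-mers, wide gaps had the higher share at both distances in each bin from 55% GC upward. At 70% GC or more this order was the reverse of that over all intervals. At 55% to 60% GC, 8.69% of such wide gaps and 0.323% of ordinary intervals lay within 100 bp of a start. The shares were 12.7% and 0.856% at 60% to 65% GC, 17.9% and 2.52% at 65% to 70%, and 26.0% and 11.7% at 70% or more. Within 500 bp of a start the shares were 33.4% and 12.4% at 65% to 70% GC, and 50.2% and 45.3% at 70% or more. Of the 3455 wide gaps with centres of at least 55% GC and no repeated 50-mer, a set defined after the GC bins were seen, 556 lay within 100 bp and 1075 within 500 bp of a start, that is 16.1% and 31.1%. Among 460344 ordinary intervals of the same kind the shares were 1.39% and 6.71%. With ordinary intervals weighted to the GC of the wide gaps, 0.124% of all wide gaps without repeated 50-mers and 0.0379% of such ordinary intervals lay within 100 bp of a start. Taken on each autosome, the difference was positive on 22 of 22 autosomes. Its mean, which counts each autosome equally and is not the difference between these pooled shares, was 0.175 points ± 0.301 (SD, n = 22 autosomes). It was smaller than its spread over them. Most of the GC-rich wide gaps, 2226 of 3455, still lay over 1000 bp from any such start. Of the GC-rich ordinary intervals without repeated 50-mers a larger share did, 412884 of 460344.

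**Figure D4:**
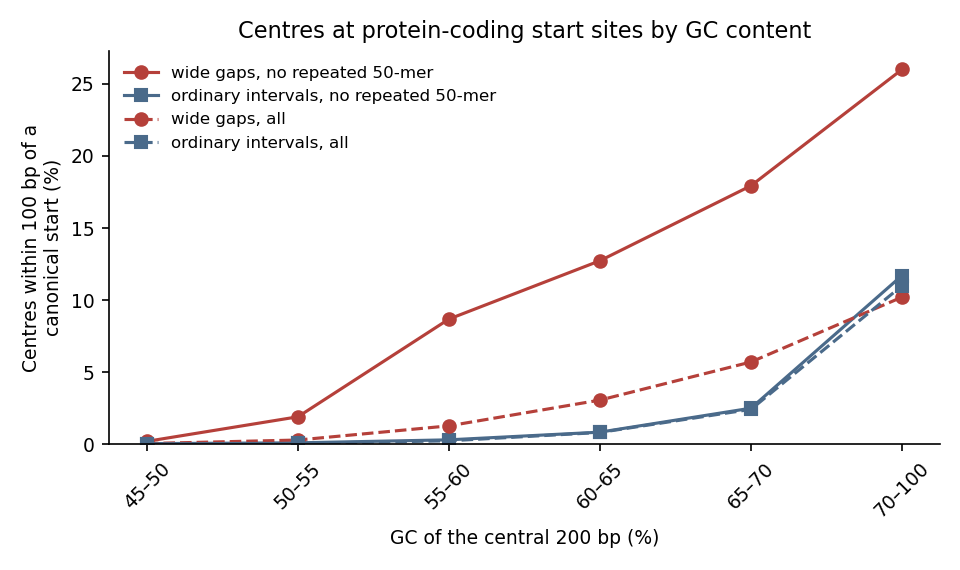
Share of interval centres (%) within 100 bp of the canonical start of a protein-coding gene, by GC content of the central 200 bp (%), for wide gaps (red circles) and ordinary intervals (blue squares); solid lines are intervals without any repeated 50-mer and dashed lines all intervals. The solid red line reaches 26.0% at 70% GC or more, where the solid blue line is at 11.7%, and the dashed lines are at 10.2% and 11%.

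Matches to 13 motifs and simple repeats were sought in the central 200 bp on both strands, each on its own, so that matches of different kinds may overlap. A match describes the letters and does not show that a factor binds there. Among simple repeats, a TA repeat of 8 or more units was found in 0.927% of wide gaps and 0.0630% of ordinary intervals, and in 0.369% of ordinary intervals weighted to the same GC. A CA or TG repeat of 8 or more units was found in 1.01% and 0.546%, or 0.385% after weighting, a difference of 0.680 points ± 0.133 (SD, n = 22 autosomes) on 22 of 22 autosomes. Without repeated 50-mers and at the same GC, the TA repeat was in 0.442% of wide gaps and 0.327% of ordinary intervals, and the CA or TG repeat differed by 0.301 points ± 0.0884 (SD, n = 22 autosomes). TATAAA, the letters of the TATA box, stood in 38.2% of wide gaps and 17.2% of ordinary intervals, but in 38.8% of ordinary intervals at the same GC.

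Runs of 10 or more A or T, which resist bending, differed with the repetition of the interval. They were in 8.13% of wide gaps and 6.30% of ordinary intervals, a difference of 2.47 points ± 1.30 (SD, n = 22 autosomes). All ordinary intervals weighted to the same GC had 7.10%, a difference of 1.28 points ± 0.891 (SD, n = 22 autosomes), positive on 22 of 22 autosomes. Without repeated 50-mers the shares were 4.70% and 4.60%, a difference of 0.265 points ± 0.447 (SD, n = 22 autosomes), within its spread. Weighted to the same GC as well, such ordinary intervals had 7.04%, and wide gaps had fewer runs, by a difference of -2.69 points ± 0.901 (SD, n = 22 autosomes) on 22 of 22 autosomes.

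Motifs of transcription factors ranged from rare to frequent. The AP-1 site was in 5.74% of wide gaps and 6.51% of ordinary intervals. The CTCF consensus was in 0.0474% of wide gaps and 0.0688% of ordinary intervals, but in only 0.0205% of ordinary intervals at the same GC, a difference of 0.0299 points ± 0.0174 (SD, n = 22 autosomes) that was positive on 22 of 22 autosomes. The composite site of OCT4 and SOX2, partners in pluripotency, was in 0.000660% of wide gaps and 0.000532% of ordinary intervals, too few to compare. In the 3455 GC-rich wide gaps without repeated 50-mers, the GC box was found in 1468 (42.5%), against 17.5% of ordinary intervals of that kind. The ETS site, CCGGAAGT, was in 89 (2.58%) against 0.385%, the CRE site, TGACGTCA, in 50 (1.45%) against 0.173%, and the consensus of NRF1, a regulator of mitochondrial genes, in 37 (1.07%) against 0.0704%. The YY1 core, AANATGGCG, was in 41 (1.19%) against 0.356%, and the REST element in 4 (0.116%) against 0.00652%. The AP-1 site, TGANTCA, went the other way, in 71 (2.06%) against 4.01%. Neither GC content nor the share near a start was held equal between these sets, whose mean GC was 65.6% and 60.5%. Within the bin of 70% GC or more the GC box was in 75.4% of wide gaps and 67.7% of ordinary intervals, and the YY1 core in 1.1% and 1.02%. In that bin the ETS site was in 2.30% and 0.779%, the CRE site in 1.97% and 0.422%, and the NRF1 consensus in 2.19% and 0.499%. The REST element was in 0.219% (2 of 912 wide gaps) and 0.0182%, and the AP-1 site in 0.768% and 1.16%.

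From the side of the genes, 1553 of 19088 canonical starts of autosomal protein-coding genes lay inside a wide gap, which is 8.14%. The share of all sequenced autosomal bases inside wide gaps was 14.6%. These starts lay in 1429 gaps, 0.189% of all wide gaps, of which 112 held 2 or more starts and 77 held starts of both strands. Of 1842 starts with a start of the opposite strand within 1000 bp upstream, 218 (11.8%) lay in a wide gap, against 1335 of 17246 others (7.74%). The SD of the first share over autosomes was 7.40 points, larger than the difference. For starts of lncRNA genes the share was 7.48% (1369 of 18296).

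**Figure D5:**
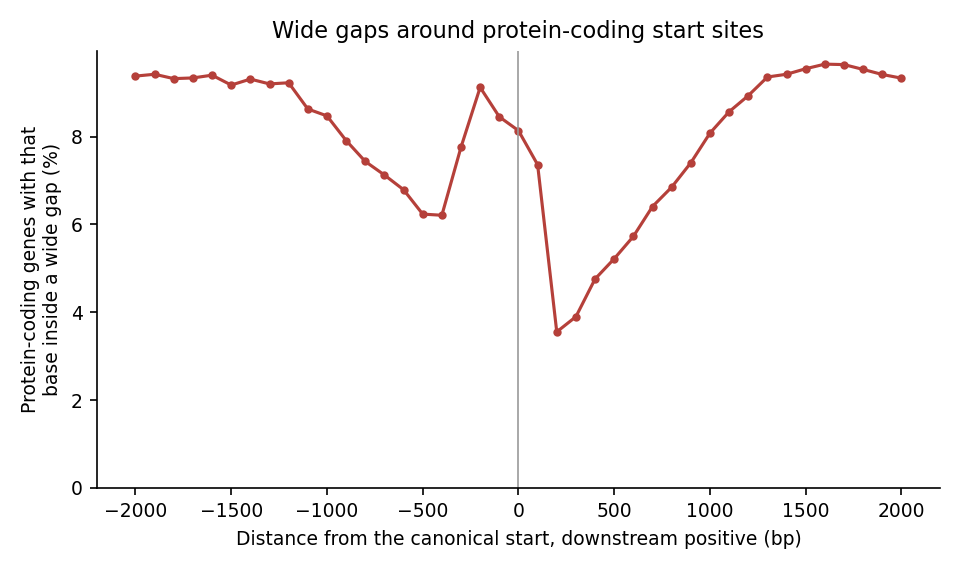
Share of 19088 autosomal protein-coding genes (%) for which the base at a given distance from the canonical start (bp, downstream positive) lay inside an interval of 400 to 1000 bp. The share has a local maximum of 9.12% at 200 bp upstream, falls to 3.55% at 200 bp downstream and returns to 9.33% at 2000 bp downstream.

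Gaps at starts lay mostly upstream of the start. The base 200 bp upstream was inside a wide gap for 9.12% of genes, the start for 8.14% and the base 200 bp downstream for 3.55%. In the 1553 genes the midpoint of the next position downstream lay at a median of 137 bp from the start, with quartiles of 110 and 183 bp, and the midpoint upstream at 310 bp, with quartiles of 262 and 378 bp. The share in a gap did not follow the GC content of 1000 bp around the start, from 8.13% in the group of genes with the lowest GC of 5 such groups, through 9.15% in the middle group, to 8.04% in the highest.

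A wide gap lay at the start of 8.14% of all autosomal protein-coding genes. None of the 4 pluripotency genes examined at their starts had one, which 4 genes cannot set apart from that share. POU5F1, which encodes OCT4, started in an interval of 290 bp (chr6:31170562-31170851) between scores of 23.4 upstream and 24.7 downstream. NANOG, a homeobox factor that sustains pluripotency, started in 260 bp, with 8.64 upstream and 25.9 downstream. SOX2, the partner of OCT4, and LIN28A, an RNA-binding protein that blocks let-7 maturation, each started in 230 bp. The intervals of POU5F1 and NANOG held repeated 50-mers. All 4 intervals were narrower than 400 bp and all but those of SOX2 and LIN28A were wider than 240 bp.

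The 10 genes whose start lay in the wide gaps with the highest lower bordering score serve unlike functions. PHB1, a prohibitin of the inner mitochondrial membrane, had a gap of 510 bp (chr17:49414752-49415261) between scores of 60.5 upstream and 93.8 downstream. NPHP4, a protein of the cilium, had 540 bp between 58 and 49.4. SNRPD1, an Sm protein of the spliceosome, had 410 bp between 48.1 and 53.1, and GBF1, an exchange factor of the Golgi, 580 bp between 46.9 and 60.5. RAB22A, a GTPase of endosomes, had 540 bp between 54.3 and 45.7, and this interval held a repeated 50-mer. MDM1, a protein of centrioles, had 480 bp and PML, which forms nuclear bodies, 410 bp. DESI1 and XRCC6, the latter encoding a subunit of the Ku complex in DNA repair, start on opposite strands in the same gap of 490 bp (chr22:41620912-41621401), between scores of 46.9 and 45.7. With STX5, these starts lay 99 to 200 bp from the midpoint of the next position downstream.

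Gene families differed in how often their starts fell in a wide gap, against 8.14% of all protein-coding genes. The counts are small and carry no test. Numbered histone genes had 18 of 72 (25%), among them H2AC25 and H2BC26, which share a gap of 470 bp, and H2BC11 and H2AC11, which share a gap of 410 bp. Proteasome subunits had 8 of 47 (17.0%), with PSMB7 in 410 bp between scores of 35.8 and 58, PSMA1 in 480 bp, PSMC4 in 420 bp and PSMD5 in 440 bp. Mitochondrial ribosomal proteins had 13 of 78 (16.7%), with MRPL57 in 500 bp between 32.1 and 48.1, MRPS24 in 400 bp, MRPS33 in 520 bp and MRPS12 in 430 bp. The median interval at the start was 310 bp for mitochondrial ribosomal proteins and 330 bp for histone genes, against 230 bp for all protein-coding genes, while for proteasome subunits it was 220 bp.

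Olfactory receptors, which are expressed chiefly in sensory neurons of the nose, had 62 of 407 (15.2%), with a median GC of 39.6% around the start, the lowest of the 13 lists. Among them OR10J1 lay in 750 bp between scores of 25.9 and 21, OR52B4 in 430 bp, OR1N2 in 610 bp and OR52I1 in 520 bp, and the last pair held repeated 50-mers. Numbered zinc finger genes, many of which arose by tandem duplication, had 61 of 495 (12.3%), with ZNF74 in 450 bp, ZNF304 in 420 bp, ZNF425 in 430 bp and ZNF17 in 400 bp. Cytosolic ribosomal proteins had 8 of 82 (9.76%), namely RPS18 in 400 bp, RPS20 in 450 bp, RPL27 in 600 bp and FAU in 400 bp among others. Glycolytic enzymes had 2 of 16 (12.5%), GAPDH in 470 bp between 48.1 and 27.1 and PGAM1 in 440 bp between 12.3 and 17.3.

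Among lists of cell identity, the shares of core pluripotency genes, lineage transcription factors and liver plasma proteins lay near the 8.14% of all protein-coding genes. Core pluripotency genes had 2 of 22 (9.09%), KLF4, a reprogramming factor, in 430 bp with 25.9 on both sides, and TDGF1, a NODAL co-receptor, in 445 bp with 9.87 upstream and 17.3 downstream. Lineage transcription factors had 2 of 24 (8.33%), the endoderm factor FOXA2 in 460 bp and ISL1, a factor of heart and motor neuron precursors, in 445 bp. Genes of liver plasma proteins had 2 of 24 (8.33%), HP in 440 bp and PLG in 550 bp. The intervals of TDGF1, HP and PLG, like that of PGAM1, held repeated 50-mers. HOX genes had 2 of 39 (5.13%), HOXD4 and HOXB7, and keratins 2 of 55 (3.64%), KRT39 and KRT28. Cardiac contractile genes had 0 of 22, with intervals from 100 to 260 bp at their starts.

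The positions that border wide gaps had lower scores than those that border ordinary intervals. Scores come from the same calls as the widths and are given as a description. The lower of the bordering scores had a median of 9.87 beside wide gaps and 12.3 beside ordinary intervals, which is 8 and 10 steps of the score, and the higher had 14.8 and 19.7. Both bordering scores reached the median of the list in 16.2% of wide gaps and 34.4% of ordinary intervals. The mean score was 13.5 at the bordering position of a wide gap and 14.1 at the sixth position away, against 16.5 and 15.9 for ordinary intervals, so that wide gaps lay in regions of lower scores as well as next to lower scores.

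Within GC bins the order of the scores changed. Below 30% GC the median lower score was 8.64 beside wide gaps and 7.40 beside ordinary intervals, and at 35% to 40% it was 9.87 beside both. At 60% to 65% GC it was 11.1 beside wide gaps and 18.5 beside ordinary intervals. Without repeated 50-mers the latter gap narrowed to 16.0 and 19.7, and weighted to the same GC the mean lower score of such intervals was 10.1 beside wide gaps and 9.14 beside ordinary intervals, higher beside wide gaps on 22 of 22 autosomes. In the 556 GC-rich wide gaps within 100 bp of a start the median lower score was 19.7, and in the 6421 such ordinary intervals it was 12.3.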

How the data were processed

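MNase-seq libraries of hiPSCs were made at 5 MNase concentrations and each was sequenced in separate runs, with 150-bp and 50-bp reads, giving 10 samples in as many groups. Per the labels and the paper's methods, the authors trimmed reads with Trimmomatic 0.40, mapped them to GRCh38, dropped regions on a blacklist, and used the nucMACC workflow. According to the methods, positions could not be profiled from the 50-bp runs, which the authors then set aside. The deposited list of positions is pooled, and neither its own input runs nor the program that called positions are given in the sources used here, and its score is a signal whose normalization by the authors is not stated. It was used without a filter.

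Midpoints were the start plus 70 bp. Properties were taken from the hg38 sequence and GENCODE release 44, which is older than the release named in the paper's methods, by the interval centre, its central 200 bp, or 10 kb around it. A start site was the Ensembl canonical one. Features are not exclusive. Ordinary intervals were also weighted in GC bins of 2 points, a step added after the data were seen. The 13 gene lists, the members and the motifs were chosen with earlier results of these data known. Named genes were 4 pluripotency genes, the 10 starts in wide gaps with the highest lower bordering score, and up to 4 of each list in that order. Printed sequences followed the same order, off chromosome 8 and outside UTRs. Values over autosomes carry their SD, and no test was made. Alternatives changed the width limits, the score and repeat filters, the window, the start sites, the gene set, the overlap and the lengths of words and runs. Calculations used Python 3.11.15, NumPy 2.4.6, pandas 2.3.3, SciPy 1.17.1, numba 0.67.0 and matplotlib 3.10.9. They were tested on simulated sequence and positions, and feature counts on chromosome 21 against bedtools 2.31.1.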

Additional observations from a re-analysis of the deposited data

How the results depend on the processing

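Of 51 values recomputed under an alternative, 29 stayed within the SD over autosomes of the main value (for counts, within 1.5 times, and for the share of starts, within its 95% binomial interval by Wilson's method), 22 moved further and 0 changed direction. Counts and the share of starts have no direction that could change. The weighting to equal GC was not among these alternatives. With it the promoter difference changed sign, to 0.231 points ± 0.385 (SD, n = 22 autosomes). The difference in the mean lower bordering score went from -2.42 ± 0.375 to 0.580 ± 0.149 (SD, n = 22 autosomes). The number of wide gaps fell to 122801 where both bordering positions had to reach the median score and to 504259 without repeated 50-mers. With the score filter on both sets, the difference in GC became -13.24 ± 0.653 points and in A or T runs 8.25 ± 2.39 (SD, n = 22 autosomes). In intergenic centres it became 3.11 ± 1.75 points and in promoters -0.648 ± 0.621 (SD, n = 22 autosomes). In centres within 500 bp of a start it was -0.264 ± 0.319 points and in introns -1.14 ± 1.79 (SD, n = 22 autosomes), both within their spread. The difference in the lower score fell to -0.841 ± 0.588 (SD, n = 22 autosomes). Without repeated 50-mers the difference in GC was -12.8 points and in A or T runs 0.265. Over the whole interval the difference in GC was -8.39 points and between the edges of the positions -9.59. With every transcript start the difference near starts was -1.68 points, and within 1000 bp it was -0.996. With protein-coding genes only, the intronic difference was -7.74 and the intergenic 9.66 points. For 150-mers the repeated share differed by 1.73 points. The share of starts in a wide gap was 7.74% at 5′-most starts, 5.03% with the score filter, 6.43% when gaps with repeated 50-mers were not counted (6.97% of the 17608 starts whose interval held none) and 7.11% for gaps of 400 to 600 bp. The measure by soft-masked bases was not run, since the reference used marks none. No paired analysis was possible because there is 1 pooled list. The read depth of a position is unknown, autosomes are not replicates, and removed blacklisted regions were not located here and may border or lie in gaps.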
